A study of Colocasia esculenta with 4 samples.

Results

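Genes with long introns were examined in taro (Colocasia esculenta), an aroid grown for its corms, in RNA of the shoot apex. An intron is a stretch of a gene that is transcribed and then spliced out of the messenger RNA. A gene was taken as long-intron when it had at least 2 exons and its introns summed to 20000 bp or more. Overlapping exons of a gene were merged first, and intron length was the span of the gene less its merged exons. Genes were taken from 6 linkage groups (chromosome-scale sequences of the assembly): LG03 up to position 186898486, LG05 from 8000001, LG07 up to 112416047, and all of LG09, LG11 and LG12. This gave 627 of the 28695 annotated genes, 7.12% of the 8809 genes with at least 2 exons on these sequences. The intron limit uses no read counts, but the 6 sequences were chosen by read content: they were selected on the counts of their genes. The high share of genes with reads on them is therefore a description, and the results below set long-intron genes against other genes of the same sequences.

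The RNA came from apical meristems and the very young leaves around them, from plants of the cultivar labelled Bing Liang. The 4 libraries are replicates of this 1 tissue, with no treatment, other tissue or other cultivar, and the labels do not say whether they came from separate plants. Spread between them may be technical. The libraries held 22301051, 25434148, 23365618 and 22252534 counts in replicates 1 to 4, and a count of 0 allows up to 0.118 to 0.135 counts per 1000000 counts (CPM), which covers counting error only. With 1 group, no condition was compared and no p-value was computed. Genes are not replicates, so differences between groups of genes are given with their SD over the 4 libraries, and this SD does not cover the choice of genes. The files pair no identifier with a gene name, so function cannot be given for any gene below.

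Splicing of an intron needs short signals at its ends and a branch point near its far end, while the sequence between may vary widely in length. Most plant introns are short. Long ones in plants with large genomes often hold transposable elements, and they lengthen the time that the polymerase needs to transcribe the gene. In the deposited tables only reads on exons were counted, and RPKM (counts per kilobase of exon per 1000000 counts) divides by exon length, so intron length enters neither value.

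Intron sequence made up nearly all of these genes. The summed introns of a member had a median of 31777 bp, a 10th percentile of 21368 bp, a 90th percentile of 66240 bp and a highest value of 197799 bp, while exons took a median 5.49% of the span of the gene. The 627 members held 45.5% of all intron sequence of the 8809 genes with at least 2 exons. They had a median of 11 exons, between 2 and 51, and a median exon length of 1974 bp, between 153 and 9491 bp.

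The length was seldom spread evenly over the introns. The largest intron of a member had a median of 17581 bp and ranged from 4653 to 77625 bp. In 326 members (exact 95% interval 48.0 to 56.0%) it made up at least 50% of the total, and in 234 members (37.3%) it reached 20000 bp by itself. It was the first intron in the direction of transcription in 56 members (8.93%, exact 95% interval 6.82 to 11.4%). If every intron of a gene were equally often the largest, the share would be 12.9%.

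Gene models can lack untranslated exons, and with them a first intron. The merged exon length was a multiple of 3, as in a model of coding sequence alone, in 63.0% of members. This is near the 64.2% of all annotated genes. The first intron was the largest in 9.62% of the 395 members with such an exon length and in 7.76% of the other 232. The exact 95% intervals were 6.90 to 13.0% and 4.66 to 12.0%, and equally frequent introns would give 13.4% and 12.0%, so the second interval reaches its value. The part of incomplete models in this was not tested.

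Each member was set against matched genes, which had the same number of exons, an exon length within 10% and summed introns under 20000 bp, on the same 6 sequences. Matched genes were found for 580 members, with a median of 22 and between 1 and 225 genes per member, 5670 different genes in all. The values of all its matched genes were averaged so that each member counted once. The other 47 members, with a median of 27 exons, had no match, and 46 of them had at least 1 CPM in every library.

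Long-intron genes also differed from their matched genes in where they lay and how their introns were arranged. The medians of summed introns were 31250.5 bp in members and 5424 bp in matched genes. The largest intron was the first in 9.66% of members and 15.8% of matched genes. A member had a median of 18.5 annotated genes within 500000 bp of its centre, against 31 around matched genes, and the mean gap to the gene on either side had a median of 35883 bp for members and 20046 bp for matched genes. Alternative exon entries, which overlap another exon of the same gene and mark more than 1 annotated transcript, were present in 20.2% of members and 20.9% of matched genes. The merged exon length was a multiple of 3 in 62.9% of members and 57.6% of matched genes. No member shared the ordered lengths of all its exons with another gene (0 of 627, which allows up to 0.587% by the exact 95% interval), against 0.587% of matched genes.

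Nearly all long-intron genes were detected in the apex, where detection means at least 1 CPM in every library. Of the 627 members, 616 were detected (98.2%, exact 95% interval 96.9 to 99.1%), against 73.2% of all genes of 2 or more exons on the same sequences. That background has fewer exons and less exon length. Of the members with a match, 98.3% were detected, against 89.3% of their matched genes, a difference of 8.99 percentage points. Counted library by library, 98.4 to 98.6% of these members and 90.3 to 90.8% of the matched genes reached 1 CPM, a difference of 7.95 ± 0.155 points (SD, n = 4 libraries) that was positive in all 4.

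The difference was widest where genes had few exons. Among members of 2 or 3 exons, 12 of 15 (80.0%) were detected, against 53.3% of their matched genes. The shares were 97.8% against 77.2% for 4 to 6 exons, 99.0% against 90.2% for 7 to 10 exons, and 98.9% against 94.5% for 11 or more exons. In each exon class the members had the higher share. The class of 2 or 3 exons rests on few members, and the exact 95% interval of its share, 51.9 to 95.7%, includes the 53.3% of matched genes. In the other classes members were at 97.8% or higher, so a higher share of matched genes left less room for a difference.

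The 3 members with 2 exons, named after their values were seen, differed widely in level. EVM0021113 lies on the minus strand of LG07 (111762592 to 111800526) and has 2 exons of 501 bp in all around an intron of 37434 bp. It was read at 109, 104, 112 and 121 RPKM in replicates 1 to 4, while 18.7% of its 225 matched genes were detected. The only other detected member with 2 exons, EVM0020322 on LG12, had 21.1, 21.1, 21.1 and 28.2 RPKM, while 39.4% of its 203 matched genes were detected. EVM0005350 on LG03, with 384 bp of exons and an intron of 20897 bp, was undetected at 0.701, 0.512, 1.11 and 0.351 RPKM, and 20.8% of its 154 matched genes were detected.

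The detected share was lower in classes of shorter introns. It was 43.8% of 2192 genes with summed introns under 500 bp, 483 of 929 genes from 500 to 1000 bp and 71.9% from 1000 to 2000 bp, each class including its lower limit only. It was 85.9% from 2000 to 5000 bp, 94.5% from 5000 to 10000 bp, 94.9% from 10000 to 20000 bp, 98.4% from 20000 to 50000 bp and 97.8% at 50000 bp or more. The exact 95% interval was 93.3 to 96.3% from 10000 to 20000 bp, 96.8 to 99.3% in the next class and 93.7 to 99.5% in the longest. These intervals cover counting error over genes only. The median exon number went with intron length, at 2 in the shortest class and 14 in the longest. Within each exon class the intervals from 10000 to 20000 bp and from 20000 to 50000 bp overlapped. For 11 or more exons they were 93.1 to 98.2% and 97.0 to 99.9%. Within genes of 7 to 10 exons the share was 61.3% from 500 to 1000 bp, 88.9% from 2000 to 5000 bp, 97.8% from 10000 to 20000 bp and 99.4% from 20000 to 50000 bp. Among genes of 2 or 3 exons the share rose from 42.9% under 500 bp to 89.5% from 5000 to 10000 bp. It was then 87.4% from 10000 to 20000 bp and 80.0% of 15 genes from 20000 to 50000 bp. The intervals of these last classes were wide and overlapped. Against matched genes with introns under 5000 bp the difference was 15.6 points.

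**Figure D1:**
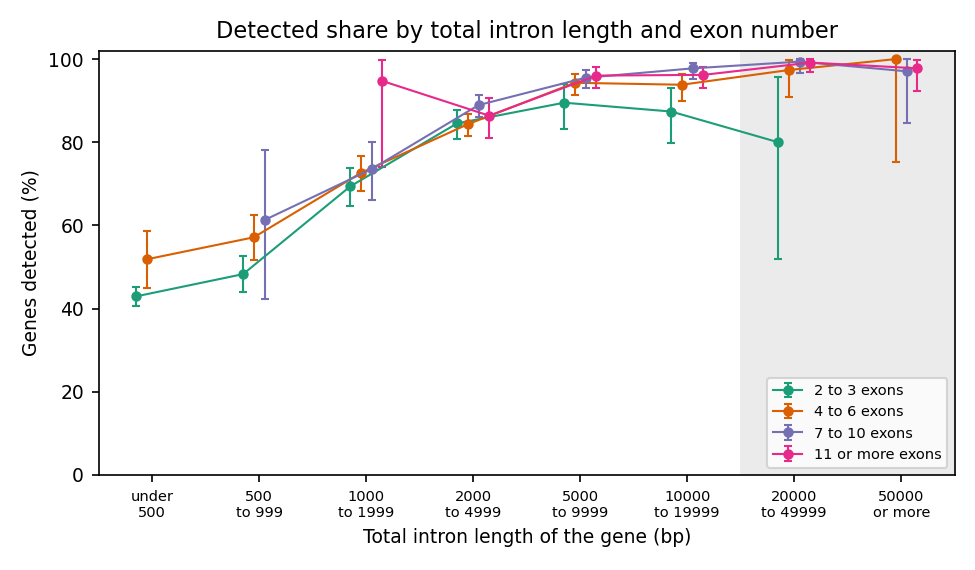
Share of genes detected (at least 1 CPM in every library, in percent) by summed intron length in bp, for genes of 2 to 3, 4 to 6, 7 to 10 and 11 or more exons on the 6 sequences. Points are shares with exact 95% intervals, classes under 10 genes are left out and the shaded range holds the long-intron genes, whose shares are 97.1% or higher except for 2 to 3 exons (80.0%).

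Of the 11 members that were not detected, 5 had no count in any library. They lay on LG03 (7), LG05 (3) and LG12 (1), and LG07, LG09 and LG11 had none. Several stood among other genes that mostly lacked reads. Between positions 160345933 and 163975647 of LG03, a stretch bounded after the data were seen, 1 of 33 annotated genes was detected and 4 had any count, and all 4 members in it were undetected. EVM0000685 on LG05 (149068105 to 149122190, plus strand, 22 exons) had 0 counts in all libraries, as did all 7 genes within 500000 bp of it. Absence of reads was thus complete for EVM0000685 and the genes around it. On the LG03 stretch it was not, and the member EVM0028118 there had 1 count in replicate 4.

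Other undetected members had neighbours with reads. EVM0020308 on LG05 (18999972 to 19083911, plus strand) also has 22 exons, in 2877 bp, with introns of 81063 bp. It had 25, 38, 35 and 11 counts in replicates 1 to 4, or 0.390, 0.519, 0.521 and 0.172 RPKM, and fell short of 1 CPM only in replicate 4. Of the 16 genes around it, 12 were detected. Without LG03, 99.2% of members were detected.

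The levels of detected long-intron genes were close to those of their matched genes. Detected members had a median of 35.5, 34.3, 33.0 and 41.7 RPKM in replicates 1 to 4 (36.1 ± 3.82, SD, n = 4). For the 568 members with a detected match the medians averaged 36.3 ± 3.72 RPKM. The detected matched genes of each member were averaged as log2 values and converted back, and the medians of these averages were 37.0 ± 0.786 RPKM. The first value is over single genes and the second over averages of genes, so their SDs are not alike. On the log2(RPKM + 1) scale the median difference, members minus matched, was −0.02, 0.02, 0.01 and 0.21 in replicates 1 to 4, a mean of 0.06 ± 0.10 (SD, n = 4). With the median in place of the mean of the matched genes, chosen after the data were seen, it was −0.01. The difference is smaller than its SD over libraries, and 0.02 remains without replicate 4. Of the 568 members, 294 (51.8%) lay above the mean of their matched genes.

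When undetected genes were kept in, the members were higher by 0.46 ± 0.12 on the same scale (SD, n = 4), between 0.38 and 0.64 in the 4 libraries. Detected and undetected genes together thus gave a larger difference than detected genes alone. It was 0.70 with a pseudocount of 0.1 in place of 1.

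Single members departed widely from their matched genes in both directions. The middle 50% of the differences, averaged over libraries, lay between −0.90 and 0.92, and the 10th and 90th percentiles were −1.82 and 1.73. The levels of detected members were less dispersed than those of other detected genes with at least 2 exons. Their 10th and 90th percentiles were 11.2 ± 2.11 and 114 ± 9.65 RPKM in members, against 4.81 ± 0.203 and 152 ± 2.11 RPKM in the others (SD, n = 4). The others were not matched here for exon number or length.

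**Figure D2:**
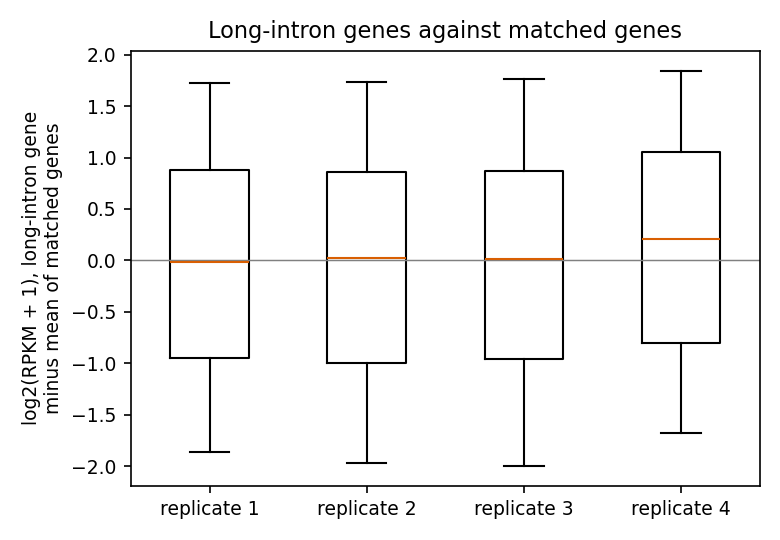
Difference in log2(RPKM + 1) between each of 568 detected long-intron genes and the mean of its detected matched genes, by library. Boxes span the quartiles, lines mark medians and whiskers the 10th and 90th percentiles; the median is near 0 in replicates 1 to 3 and 0.21 in replicate 4.

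Across intron classes the median level of detected genes was highest at intermediate length. It was 17.0 ± 1.02 RPKM under 500 bp, 36.7 ± 0.391 from 2000 to 5000 bp, 41.0 ± 1.27 from 5000 to 10000 bp, 39.5 ± 0.481 from 10000 to 20000 bp, 35.9 ± 2.99 from 20000 to 50000 bp and 36.9 ± 6.86 at 50000 bp or more (SD, n = 4). The last 2 classes, which are the members, do not differ from each other beyond their spread. In replicates 1 to 3 both lay below the class of 5000 to 10000 bp. In replicate 4 both lay above it, at 40.2 and 46.9 RPKM against 39.6 RPKM. Among the 616 detected members, Spearman's correlation of RPKM with summed intron length averaged 0.02 over libraries, between 0.00 and 0.06, and that with exon length averaged −0.13. These are correlations across genes that share the libraries.

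**Figure D3:**
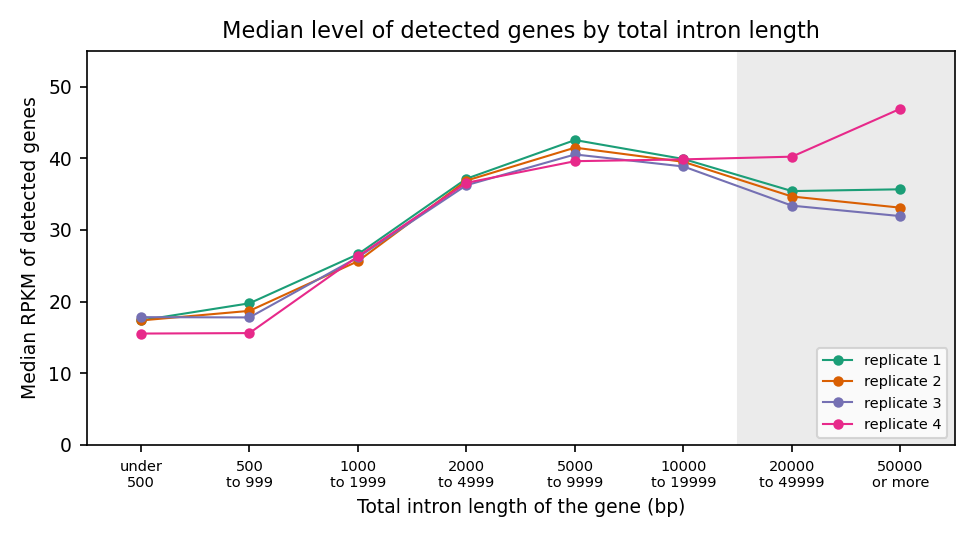
Median RPKM of detected genes with at least 2 exons by summed intron length in bp, with 1 line per library. The shaded range holds the long-intron genes; there replicate 4 stands at 40.2 and 46.9 RPKM while the other libraries stand between 31.9 and 35.7.

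Of the 100 genes highest in mean RPKM in the whole annotation, 75 lay on the 6 sequences and 3 were members, where 627 of the 10950 genes of these sequences are members. On average 85 members (13.6%) exceeded 100 RPKM, against 12.3% of the other 8182 genes with at least 2 exons, undetected genes included. Of those other genes 71.2% were detected. Among detected genes alone the 90th percentile was lower in members, at 114 RPKM against 152 RPKM. On average 10 members were under 1 RPKM, and the other genes were not counted at that level. Members took 7.32, 6.97, 6.99 and 8.54% of all counts in replicates 1 to 4.

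The 3 highest members all lay on LG03. EVM0027692 (180932842 to 180960741, plus strand) has 7 exons of 1464 bp in all and introns of 26436 bp. It reached 1510, 1678, 1635 and 1568 RPKM in replicates 1 to 4. It lay 5.47 above the mean of its detected matched genes on the log2(RPKM + 1) scale, and 89.8% of its 88 matched genes were detected. EVM0013230 (139538718 to 139563524, minus strand) has 11 exons in 2053 bp with introns of 22754 bp, and had 848, 824, 906 and 889 RPKM. EVM0019005 (152639711 to 152671669, plus strand) had 826, 841, 759 and 972 RPKM. The means of these last were 867 ± 37.3 and 849 ± 88.9 RPKM (SD, n = 4), so their order was not resolved, while EVM0027692 lay above both in every library.

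EVM0019005 is also the most extreme of the 3 in structure. Its 3 exons hold 153 bp, 0.479% of its span, and a single intron of 31716 bp makes up 99.7% of its intron sequence. A level per kilobase of so short an exon length rests on 2714 to 3308 counts per library.

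The highest member of each other linkage group was between 223 and 534 RPKM on average. EVM0018286 on LG12 (31620460 to 31661401, minus strand, 8 exons, introns of 39892 bp) had 493, 535, 507 and 602 RPKM. EVM0025705 on LG11 (2196188 to 2221910, plus strand, 12 exons, introns of 23937 bp) had 367, 365, 358 and 392 RPKM. The 2 genes differ in arrangement, since the largest intron held 94.7% of intron sequence in EVM0018286 and 27.2% in EVM0025705.

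The leading members of the remaining 3 groups were nearer to each other. EVM0005129 on LG07 (91230987 to 91262820, plus strand, 8 exons) averaged 263 ± 27.1 RPKM. EVM0027727 on LG09 (138192192 to 138226568, plus strand, 9 exons) averaged 235 ± 11.5 RPKM. EVM0027541 on LG05 (154412155 to 154454737, plus strand, 5 exons of 450 bp in all) averaged 223 ± 15.6 RPKM (SD, n = 4 each). Neighbours in this order overlapped in their libraries.

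Extreme intron length went with no single level. EVM0008198 on LG09 (154094416 to 154297932, minus strand) had the most intron sequence, 197799 bp between 30 exons of 5718 bp in all, and was read at 6.57, 6.28, 5.19 and 6.87 RPKM. EVM0012495 on LG11 (1910823 to 2106752, plus strand), with introns of 190803 bp and 24 exons, had 76.9, 73.7, 80.2 and 99.5 RPKM. EVM0015238 on LG12 (75862549 to 76051164, plus strand) had introns of 187197 bp between 10 exons and the largest single intron of all members, 77625 bp. It had 12.3, 12.8 and 13.8 RPKM in replicates 1 to 3 and 30.5 RPKM in replicate 4.

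At the limit of 20000 bp, the levels inside lay within the range of those outside. The members just inside were EVM0009271 on LG03 (9033520 to 9056765, minus strand, introns of 20017 bp), at 27.6 ± 2.28 RPKM, and EVM0025721 on LG07 (86649501 to 86671928, plus strand, 20026 bp), at 31.5 ± 15.1 RPKM. Just outside were EVM0005546 on LG05 (28484737 to 28506561, plus strand, 19971 bp), at 17.6 ± 0.414 RPKM, and EVM0001211 on LG07 (61476326 to 61499692, minus strand, 19944 bp), at 35.6 ± 3.18 RPKM (SD, n = 4 each). The large SD of EVM0025721 came from replicate 4, which had 54.0 RPKM against 22.3 to 24.8 RPKM in the others.

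Members on LG05 stood lower than those elsewhere. The median of detected members was 28.7 ± 2.52 RPKM on LG05 and between 35.6 and 43.7 RPKM on the other 5 linkage groups. Set against matched genes from any of the 6 sequences, LG05 members differed by −0.41 ± 0.07 on the log2(RPKM + 1) scale, with all 4 libraries below 0, and LG03 members by 0.37 ± 0.17, with all 4 above (SD, n = 4). With matched genes from the same linkage group only, the values were −0.50 ± 0.21 for 82 members of LG05 and 0.45 ± 0.13 for 74 of LG03. The other 4 groups lay between 0.06 and 0.17 with any matched genes and between −0.04 and 0.22 within the group. Without the members of LG05, the difference was 0.13 in place of 0.06, with matched genes still taken from all 6 sequences.

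Members were also described by exon number and intron arrangement, and differences between these sets of members were not tested. Level differences among detected members were 0.37 ± 0.15 for 2 or 3 exons (12 members) and 0.18 ± 0.13 for 4 to 6. They were 0.13 ± 0.09 for 7 to 10 exons and −0.05 ± 0.08 for 11 or more (SD, n = 4). Of the 216 members with a match and a single intron of at least 20000 bp, 97.7% were detected, against 85.3% of matched genes. Of the other 364 members with a match, 98.6% were detected, against 91.7%. Their level differences were 0.14 ± 0.09 and −0.03 ± 0.09 (SD, n = 4). The SD over libraries does not cover the choice of genes. Over all 568 compared members the 10th and 90th percentiles of the level difference were −1.82 and 1.73. The level difference was 0.24 ± 0.04 over the 53 detected members whose first intron was the largest, and 0.02 ± 0.10 over 515 with another intron largest. All 123 members with alternative exon entries were detected, against 97.8% of the 504 without such entries. Matched genes went the same way, with 93.4% detected for members with such entries and 88.2% for members without. Level differences were −0.16 ± 0.11 over 117 members with such entries and 0.10 ± 0.10 over 451 without.

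Variation between libraries depended on the genes that members were set against. The coefficient of variation of CPM over the 4 libraries had a median of 13.1% in the 568 detected members with a detected match. For each member the median coefficient of its matched genes was taken, and this had a median of 14.0%; 307 of the 568 members (54.0%) lay below that of their matched genes, with a median difference of −0.88 percentage points. The mean coefficient of the matched genes, which a few variable genes can raise, had a median of 17.2%, and the difference from it was −3.88 points. The setting with medians was chosen after the data were seen. By intron class the median coefficient was 19.3% under 500 bp, 13.3% from 5000 to 10000 bp and 11.4% from 10000 to 20000 bp, against 12.7% from 20000 to 50000 bp and 15.1% at 50000 bp or more. Long-intron genes were thus not steadier than genes just below the limit. Without replicate 4 the median over the members was 6.09%, and the mean of matched genes 9.60%.

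The steadiest and the most variable member with at least 10 CPM in every library lie on the same linkage group. EVM0013640 on LG12 (98360817 to 98396313, minus strand, 6 exons, introns of 33517 bp) had 120, 120, 122 and 119 RPKM, a coefficient of variation of 0.785%. EVM0003136 on LG12 (2734285 to 2781231, plus strand, 9 exons, introns of 45624 bp) had 30.3, 26.8 and 33.8 RPKM in replicates 1 to 3 and 121 RPKM in replicate 4, a coefficient of variation of 85.8%.

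Replicate 4 differed from the other libraries in the direction of higher levels of long-intron genes. It was the highest of the 4 libraries in CPM for 416 of the 616 detected members (67.5%), against a background of 43.6% of all detected genes with at least 2 exons on the 6 sequences. It was the lowest for 110 members (17.9%), against a background of 36.9%. It exceeded each of the others by over 2-fold in 27 members (4.38%) and was over 2-fold lower than each in 3 (0.487%), while for the other detected genes with at least 2 exons these shares were 1.61% and 3.02%.

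Over genes of all exon numbers together, the deviation of replicate 4 was larger in the classes of longest introns. For each gene the log2 CPM of a library was set against the mean of the other 3. In replicate 4 the median deviation lay between −0.03 and 0.03 in the 5 classes with summed introns under 10000 bp. It was 0.06 from 10000 to 20000 bp, 0.23 from 20000 to 50000 bp and 0.33 at 50000 bp or more. In the last class the medians of replicates 1 to 3 were −0.04, −0.13 and −0.18, which in part follows from replicate 4 being in their mean. The deviation of replicate 4 also differed by exon number among shorter introns. For 11 or more exons it was 0.40 from 1000 to 2000 bp (18 detected genes), 0.09 from 2000 to 5000 bp and 0.16 from 5000 to 10000 bp. For 2 or 3 exons it was −0.08, −0.08 and −0.09 in the same classes.

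Exon number and exon length moved with intron length, and the deviation remained against matched genes. Among the 568 detected members with a detected match, replicate 4 deviated by a median of 0.25 in members and 0.05 in their matched genes, and the median of the differences was 0.18. The same measure was −0.05, −0.06 and −0.06 in replicates 1 to 3. With matched genes also within 2-fold in mean CPM it was 0.20 in replicate 4, and with the median of the matched genes 0.15. It was positive in replicate 4 in every exon class, between 0.14 and 0.28, and on every linkage group. On LG05 it was 0.05, or 0.01 with matched genes of the same linkage group, while the other groups lay between 0.18 and 0.22, or between 0.17 and 0.33.

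In tissue libraries more cells of a kind and more RNA per cell cannot be told apart.

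**Figure D4:**
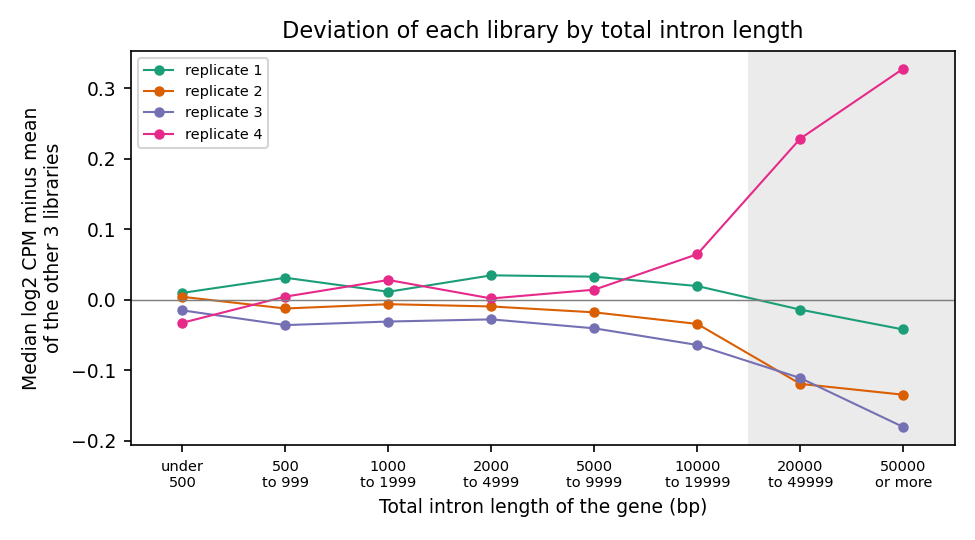
Median over detected genes of log2 CPM in one library minus the mean of the other 3 libraries, by summed intron length in bp, with 1 line per library. The shaded range holds the long-intron genes, where replicate 4 stands at 0.23 and 0.33 and the other libraries at or below −0.01.

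Single members departed from this course in both directions. The 2 members highest in replicate 4 against the others, chosen for that difference at the same floor, were EVM0003136, described above, and EVM0025492 on LG12 (81680748 to 81770279, minus strand, 19 exons, introns of 87243 bp). EVM0025492 had 19.5, 17.5 and 18.4 RPKM in replicates 1 to 3 and 53.8 RPKM in replicate 4. The 2 lowest in replicate 4, chosen in the same way among members with at least 10 CPM in every library, both lie on LG11. Below that floor, EVM0009999 on LG07 (102569648 to 102595943, minus strand, 4 exons), named after its values were seen, had 153, 69.1 and 134 RPKM in replicates 1 to 3 and 16.0 RPKM in replicate 4. EVM0011195 (21484438 to 21517740, plus strand, 10 exons, introns of 29284 bp) had 73.9, 71.1 and 72.5 RPKM in replicates 1 to 3 and 28.7 RPKM in replicate 4. EVM0017565 (114452709 to 114485510, minus strand, 8 exons, introns of 31992 bp) had 373, 362 and 360 RPKM in replicates 1 to 3 and 149 RPKM in replicate 4. In EVM0003136, EVM0025492, EVM0011195 and EVM0017565 the first 3 libraries lay close together. In EVM0009999 they did not, with 69.1 to 153 RPKM.

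**Figure D5:**
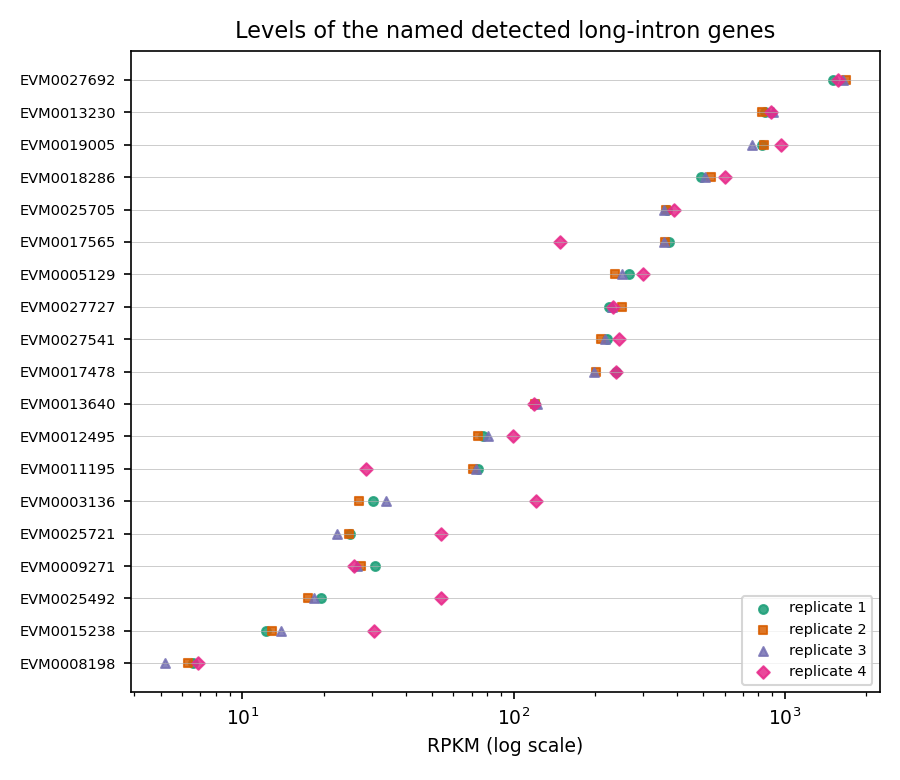
RPKM (log scale) of 19 detected long-intron genes, those named by rule, in each library, ordered by mean level. The 4 libraries lie close together in most genes, and replicate 4 stands to the right in EVM0003136, EVM0025492, EVM0015238 and EVM0025721 and to the left in EVM0017565 and EVM0011195.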

How the data were processed

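Polyadenylated RNA was sequenced from one end as strand-specific libraries, per the labels' protocols. Per gene, the deposited files give raw read counts from featureCounts 2.0.0 on the reverse strand, with reads of several alignments counted at each place, per the file headers. Trimmomatic 0.36 and HISAT2 2.0.5 are named in the submitters' processing notes. The headers name a Lachesis-scaffolded assembly without a build name; coordinates are the authors' own and start at 1. The RPKM values deposited by the authors equalled the counts recomputed per kilobase of exon and 1000000 counts, within 1e-06 for 28695 genes.

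Exons were merged and genes matched in Python 3.11.15 with pandas 2.3.3, and library scaling was computed with edgeR 4.0.16 and DESeq2 1.42.0. CPM used library totals, detection asked for 1 CPM in every library, and log2 values used a pseudocount of 1 RPKM. The matched level difference was also computed on simulated counts, with planted folds in part of the members, which were scored against the other members. The simulated counts held counting error only. They therefore do not cover spread between libraries or an offset shared by all members. Intervals of shares are exact binomial at 95% and cover counting error over genes only.

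The members, their matching and the comparisons were chosen with earlier results of these data known. Named genes are the 3 highest members and the highest of each linkage group, the 3 with most intron sequence, the largest single intron, the 2 nearest either side of the limit, the member with most genes inside, the 2 undetected with most exons, and the extremes of variation and of replicate 4 at 10 CPM; the members of 2 exons and EVM0009999 are named outside this rule. No sequence was used here.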

Additional observations from a re-analysis of the deposited data

Results flagged for a closer look

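In 9 of 39 values examined, replicate 4 lay far from the remaining 3 libraries, and no other library did. About 1 independent value in 20 is flagged by chance, but these values share genes and libraries, and 4 of the genes were chosen for their level in replicate 4.

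The level difference over all members with a match, members minus matched on the log2(RPKM + 1) scale, was 0.64 in replicate 4 and between 0.38 and 0.42 in the others. The difference in deviation between members and matched genes was 0.18 in replicate 4 and between −0.06 and −0.05 in the others. The Spearman correlation of RPKM with summed intron length over detected members was 0.056 in replicate 4 and at most 0.01 in the others, weak in every library.

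Among named members, replicate 4 stood apart upward in EVM0015238 (30.5 RPKM), EVM0025721 (54.0 RPKM), EVM0003136 (121 RPKM) and EVM0025492 (53.8 RPKM). It stood apart downward in EVM0011195 (28.7 RPKM) and EVM0017565 (149 RPKM). Gene by gene, the same criterion marked replicate 4 in 124 of 616 detected members (20.1%) and in 590 of 5829 other detected genes with at least 2 exons (10.1%). It marked replicates 1, 2 and 3 in 8, 3 and 2 members.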

How the results depend on the processing

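Of 96 alternatives over 10 results, 55 stayed within the spread between libraries, the exact interval of a share or 1.5 times a number. The level difference among detected genes, 0.06 ± 0.10 over the 4 libraries, was −0.04 at a limit of 50000 bp and −0.01 against the median of matched genes; every other difference kept its sign. With a limit of 10000 bp, 1512 genes were long-intron, 96.3% were detected, 10.96 points more than matched genes; level differences were 0.73 over all genes and 0.19 among detected ones, and the first intron was largest in 16.0%. With 50000 bp these values were 137 genes, 8.04 points and 4.38%, and 0 members held an inner gene. With a single intron of 20000 bp they were 234 genes, 12.4 points and a level difference of 0.72. The detected difference was 7.56 points at 1 CPM in 2 libraries, 7.42 at 10 counts and 4.47 at 1 count in every library. It was 9.34 and 8.77 points with exon lengths within 5% and 25%, and 10.3 within linkage groups; the replicate 4 deviation was then 0.19, 0.17 and 0.18. Against matched genes with introns under 5000 bp the values were 15.6 points, level differences of 0.94 and 0.21, −5.52 points of variation and a deviation of 0.19. A pseudocount of 0.1 gave a level difference of 0.70, and keeping detected genes only gave 0.055. On the TPM scale the members' median was 55.1. At 10 CPM in every library, variation differed by −2.27 points and the deviation was 0.16. Inner genes of at least 2 exons were found in 0.159% of members. With a library left out, the detected difference was 8.35 to 9.09 points, the variation −3.89 to −3.36 points, the detected share 98.2 to 98.4%, the level differences 0.40 to 0.49 and 0.02 to 0.08, and the median 34.2 to 37.2 RPKM; each extreme of the detected and level differences on the low side came without replicate 4. Chosen after seeing the data, matching on mean CPM gave −3.27 points and 0.20, and the median of matched genes gave −0.88 points and 0.15. Leaving out the members of LG03, also chosen after seeing the data, gave 99.2% detected and a difference of 9.48 points. Matched genes on LG03 were kept there. The cause of these changes was not tested. No paired analysis was possible because the 4 libraries form a single group. Of the 627 members, 620 had a count in every library.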

Other observations

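Other annotated genes were rare inside the long introns. Of the 627 members, 4 (0.638%, exact 95% interval 0.174 to 1.63%) held a gene that lay wholly within 1 of their introns, 5 such genes in all, of which 3 were on the opposite strand and 2 were detected. EVM0017478 on LG05 (155304162 to 155337459, plus strand, 4 exons, introns of 31777 bp) held 2 of the inner genes, both undetected. It was itself at 239, 202, 199 and 238 RPKM in replicates 1 to 4. All 4 hosts were detected, as were 98.2% of the members without an inner gene.

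The longest-intron genes differed from the other members in their gene models. Of the 137 members with summed introns of at least 50000 bp, 10.2% had alternative exon entries and 78.1% had an exon length that was a multiple of 3, against 22.2% and 58.8% of the 490 members with shorter introns. Their median exon numbers were 14 and 10. These shares were not particular to the longest introns: among genes with summed introns under 500 bp they were 4.47% and 78.2%. The detected shares were 97.8% of the 137 members and 98.4% of the 490.

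Genes that met the same intron limit were also present on the rest of the assembly. On the linkage groups outside the rule, 758 of 9413 genes with at least 2 exons (8.05%) had introns of 20000 bp or more, with a median of 33090 bp, close to that of the 627 members. Of these, 175 had any count and 38 (5.01%) were detected, against 2.89% of the other genes with at least 2 exons there. On unplaced contigs 93 of 2507 (3.71%) met the limit and 89 of them (95.7%) were detected, against 71.4% of the other genes with at least 2 exons.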
